A study of Mus musculus with 12 samples.

Results

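The paired box (PAX) family is described here in cultured mouse oligodendrocyte progenitor cells (OPCs), the dividing cells of the brain that give rise to myelinating oligodendrocytes. Its 9 members, Pax1 to Pax9, were taken by gene symbol from 55536 annotated genes. RNA-seq was run on 12 libraries, 3 in each of 4 groups: untreated OPCs (Ctr), OPCs given the EZH2 inhibitor EPZ011989 at 1.5 µM for 4 days with renewal every 48 h (EZH2i), OPCs given IFN-γ at 100 ng/ml for 6 h (IFN-γ), and OPCs given both agents (IFN-γ + EZH2i). All groups shared the source: brains of pups aged P4 to P6, pooled over several animals, isolated by the Sox10-GFP reporter or with CD140a beads, then grown with PDGFaa and bFGF. The reporter follows Sox10-driven Cre, so it stays on in every descendant of a cell that once expressed Sox10. The labels call all 12 libraries Sox10GFP+ OPCs, while the protocols name both ways of isolating the cells. Replicates came from different litters. The labels list the EAE mouse model for all groups, although these are cultures of pup cells, and they name no vehicle for the untreated cells.

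PAX proteins are transcription factors that bind DNA through a paired domain, and they set up organs and cell types in the embryo. Pax1 and Pax9 have no homeodomain and build the vertebral column, thymus and teeth. Pax2, Pax5 and Pax8 keep part of a homeodomain and act in the kidney, the midbrain-hindbrain boundary, the thyroid and B cells. Pax3 and Pax7 carry a full homeodomain and act in the dorsal neural tube, neural crest and muscle, and Pax4 and Pax6, also with a homeodomain, act in the pancreas, eye and forebrain. EZH2 is the catalytic subunit of PRC2, which places the repressive mark H3K27me3. Many PAX genes are known carriers of that mark where they are silent. H3K27me3 itself is not analysed here.

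Library totals lay between 17403896 and 66546017 estimated counts. At this depth a floor of 3 counts equals between 0.0455 and 0.169 CPM, the count scaled to library size, by library. All 7 OPC markers, including Pdgfra, Cspg4 and Sox10, were detected, and their summed level was 8111 to 8375 CPM in Ctr, 6700 to 7100 in EZH2i, 5292 to 7130 in IFN-γ and 4304 to 5199 in IFN-γ + EZH2i. The 7 neuron markers summed to 36.8 to 53.0 CPM in Ctr and 53.4 to 92.2 CPM in EZH2i, and to 688 to 1286 CPM in IFN-γ and 955 to 1655 CPM in IFN-γ + EZH2i. Of these 7, Snap25, Stmn2 and Syt1 rose with EZH2i averaged over both IFN-γ states, where 2.03% of all tested genes were called higher. None of the 7 is at 0 in all libraries. With IFN-γ, 3 of the 7 were called higher without and 3 with inhibitor, where 6.65% and 5.9% of all genes were. Only 5 and 3 of the 7 had a positive change there, so the larger sums come from part of the list. The 6 oligodendrocyte markers summed to 1892 to 2325 CPM in Ctr and 1112 to 1641 in EZH2i. They summed to 1765 to 2097 CPM in IFN-γ and 1074 to 1615 in IFN-γ + EZH2i. Of the 6, 1, Mbp, fell in the averaged test, where 0.19% of all tested genes were called lower. The 4 endothelial markers summed to 9.20 to 16.9 CPM in Ctr and 19.5 to 35.4 in EZH2i, and to 8.26 to 16.5 and 17.1 to 32.5 CPM with IFN-γ, mostly from Flt1, with 0 of 3 tested called in it. The 5 astrocyte markers summed to 1199 to 2044 CPM in Ctr and 1539 to 2462 in EZH2i. They summed to 1138 to 2289 CPM in IFN-γ and 1589 to 2717 in IFN-γ + EZH2i, with 0 of 5 called in the averaged test. The part of a change in cell mixture in the PAX results was not tested, and in bulk RNA fewer cells of a type and less RNA per cell cannot be told apart.

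Pax6 and Pax3 carried most PAX reads in these cultures, and which cell types the reads came from was not tested. Pax6 held 79.4% of the 6489 PAX counts summed over the 12 libraries, and Pax3 held 13.6%. Per transcript length, Pax6 had a mean level of 4.77 TPM in Ctr, 4.05 in EZH2i, 5.53 in IFN-γ and 5.51 in IFN-γ + EZH2i, and it lay above Pax3 in 12 of 12 libraries without overlap. Pax3 came next with mean levels of 0.302, 0.521, 0.411 and 0.529 TPM in the same order, above Pax1, next in order over all libraries, in 12 of 12 libraries, although their ranges over the libraries overlap.

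The order of the other 7 members depended on the group. In Ctr, Pax4, Pax8, Pax1, Pax5, Pax9, Pax2 and Pax7 followed with means from 0.0352 TPM down to 0, and the ranges of every pair of neighbours in that order overlapped. In EZH2i, Pax3 was followed by Pax1 at 0.238, Pax9 at 0.209 and Pax5 at 0.143 TPM, again with overlapping ranges between neighbours. In IFN-γ + EZH2i it was followed by Pax1, Pax5 and Pax9 at 0.299, 0.185 and 0.0761 TPM, with overlap as well. All 7 together gave 3 to 13 counts per library in Ctr, 7 to 16 in IFN-γ, 72 to 86 in EZH2i and 36 to 77 in IFN-γ + EZH2i. The 2 ranges without inhibitor therefore lie below the 2 with it, on raw counts that are not scaled for depth.

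**Figure D1:**
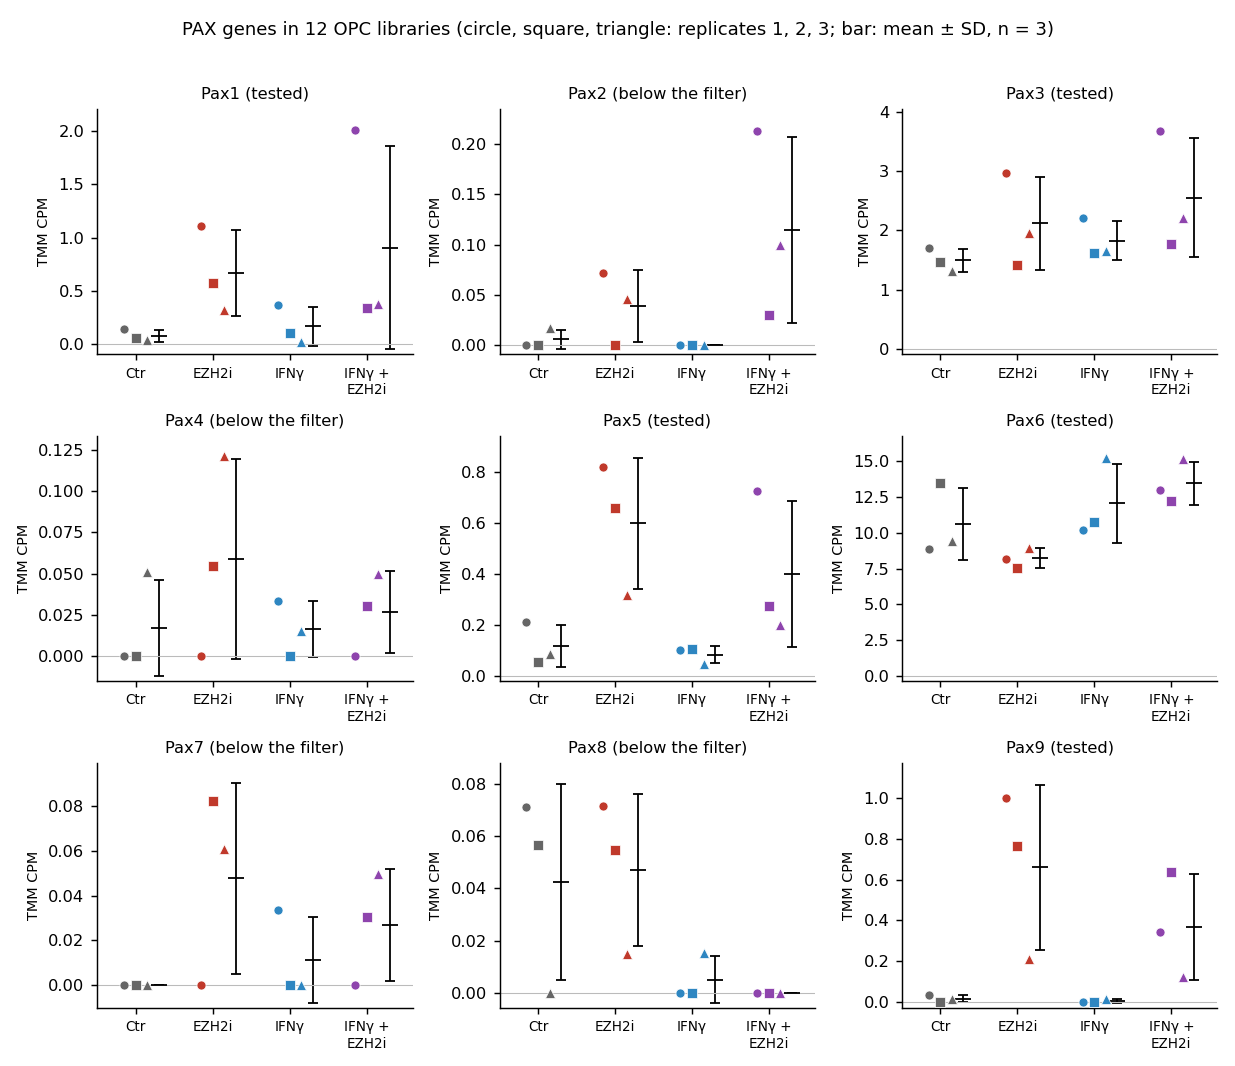
TMM-normalized CPM (linear axes, a different scale in each panel) of the 9 PAX genes in each of the 12 libraries, grouped by treatment, with circle, square and triangle for replicates 1, 2 and 3 and the mean ± SD of 3 libraries beside them. Pax9 sits at or under 0.0355 CPM in every library without inhibitor and at or above 0.124 CPM in every library with it, while Pax6 lies between 7.54 and 15.2 CPM throughout.

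Pax1, Pax3, Pax5, Pax6 and Pax9, 5 of the 9, passed the filter on low counts, which asks for 0.297 CPM in at least 3 libraries. Pax5 and Pax9 passed through 4 inhibitor-treated libraries each and no untreated one, and Pax1 through 6 treated and 1 untreated, so a difference in these 3 is favoured by the filter itself. Pax2, Pax4, Pax7 and Pax8 reached that level in 0 libraries and are described by their counts.

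The main comparison asks what EZH2 inhibition does to each gene, averaged over both IFN-γ states, 6 libraries against 6. In the main fit, without a replicate block, Pax9 and Pax5 rose, and Pax1, Pax3 and Pax6 did not pass the test. With 2 of 5 members called higher, the background is 2.03% of the 18995 genes tested called higher, by edgeR's quasi-likelihood test with a Benjamini-Hochberg adjusted p under 0.05. Compared with Ctr alone, 0 of 5 members were called without a block against a background of 0.405%, and within IFN-γ 0 of 5 against 0.353%. In each of these 2 comparisons 3 members, Pax9, Pax5 and Pax1, had an unadjusted p under 0.05, where 1338 and 1220 of all genes did. DESeq2 called 1 member in each, Pax9, where it called 1.64% and 1.34% of all genes higher. Within IFN-γ, edgeR with the replicate block called 3 of 5, Pax1, Pax5 and Pax9, and 3.11% of all genes higher. For the averaged comparison, edgeR with a block for the replicate number called Pax1 (adjusted p = 0.000522) beside Pax5 and Pax9. With that block 7.71% of all genes were called higher, and it takes the Ctr numbers as pairs too.

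Pax9 (ENSMUSG00000001497, chr12:56691767-56712822, + strand, GRCm38), a regulator of sclerotome, tooth and thymus development, showed the largest fitted change of the 5 members in the averaged comparison. Its levels were 0.0355, 0 and 0.0170 CPM in the 3 Ctr libraries and 1.00, 0.767 and 0.213 CPM in EZH2i. With IFN-γ they were 0, 0 and 0.0154 CPM, and with IFN-γ + EZH2i 0.342, 0.638 and 0.124 CPM. All 6 treated libraries lay above all 6 untreated ones, a separation without overlap that 1.44% of all tested genes showed in the same direction. Pax9 passed the filter only through treated libraries, which favours such a gap. The share counts all tested genes, whichever libraries they passed through, as do the shares beside Pax1 and Pax5 below. Each library without inhibitor held 0 or 1 Pax9 counts, under the floor of 3.

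In counts, Pax9 had 70 in EZH2i against 2 in Ctr, a ratio of 28.2 after scaling (95% interval 7.51 to 237, exact, for counting error only). With IFN-γ it had 34 against 1, a ratio of 46.6 (7.81 to 1892). The averaged fitted change was 4.99 ± 0.73 on the log2 scale (SE; edgeR adjusted p = 0.00409), and it was called in all 12 fits that each left out 1 library. Tested alone, the changes were 4.85 ± 0.99 against Ctr (edgeR adjusted p = 0.0675) and 5.12 ± 1.09 within IFN-γ (edgeR adjusted p = 0.0944). The DESeq2 adjusted p-values were 0.00863 and 0.0144. Within IFN-γ, where the replicate numbers were taken as pairs, edgeR with the replicate block called Pax9 too (adjusted p = 0.00931), beside Pax1 and Pax5. There 3.11% of all genes were called higher. Against Ctr, Pax9 was also called when EZH2i replicate 3, the lowest of the EZH2i libraries, was left out (edgeR adjusted p = 0.0374).

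Pax1 (ENSMUSG00000037034, chr2:147361925-147393295, + strand) is the sister gene of Pax9 in the vertebral column. It had 0.142, 0.0565 and 0.0339 CPM in Ctr and 1.11, 0.575 and 0.319 CPM in EZH2i. With IFN-γ it had 0.369, 0.107 and 0.0154 CPM, and with IFN-γ + EZH2i 2.01, 0.334 and 0.373 CPM. The groups did not overlap without IFN-γ, a pattern that 7.37% of all genes shared in this direction. With IFN-γ they did overlap, because replicate 1 of the IFN-γ group lay above the lowest treated library.

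Pax1 counts were 73 against 7 in EZH2i and Ctr, a ratio of 8.39 (3.87 to 21.6), and 73 against 16 with IFN-γ, a ratio of 6.25 (3.60 to 11.5). The averaged change was 2.86 ± 0.74 on the log2 scale and missed the threshold (edgeR adjusted p = 0.0782). Leaving out IFN-γ replicate 1 brought it past the threshold at 3.55 ± 0.75 (edgeR adjusted p = 0.0419). DESeq2 called it (adjusted p = 0.00446), where it called 3.73% of all genes higher, as did edgeR without a filter (adjusted p = 0.0349), where 1.25% were called higher. Within IFN-γ the change was 2.59 ± 0.98 without a block (edgeR adjusted p = 0.597) and 2.54 ± 0.50 with the replicate block (edgeR adjusted p = 0.0141). The unblocked value was 3.97 without IFN-γ replicate 1 and 1.27 without IFN-γ + EZH2i replicate 1. Replicate 1 was the highest library for Pax1 in each of the 4 groups, and leaving out IFN-γ + EZH2i replicate 1 lowered the averaged change to 2.20.

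Pax5 (ENSMUSG00000014030, chr4:44524757-44710487, − strand), the factor that commits cells to the B lineage and patterns the midbrain, also rose. Its levels were 0.213, 0.0565 and 0.0848 CPM in Ctr and 0.822, 0.658 and 0.319 CPM in EZH2i. With IFN-γ they were 0.101, 0.107 and 0.0463 CPM, and with IFN-γ + EZH2i 0.727, 0.274 and 0.199 CPM. Treated libraries lay above untreated ones within each IFN-γ state, where 7.37% (without) and 6.08% (with IFN-γ) of genes did so in this direction, while over all 12 libraries the lowest treated one, 0.199 CPM, lay under Ctr replicate 1.

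The averaged change of Pax5 was 2.25 ± 0.48 on the log2 scale (edgeR adjusted p = 0.0314). The counts were 68 against 12, a ratio of 4.56 (2.45 to 9.25), and 34 against 10 with IFN-γ, a ratio of 4.66 (2.25 to 10.6). The 2 comparisons alone gave 2.28 ± 0.66 (edgeR adjusted p = 0.257) and 2.23 ± 0.69 (edgeR adjusted p = 0.361), and the replicate block within IFN-γ gave 2.09 ± 0.50 (edgeR adjusted p = 0.0375). The averaged call did not hold against the loss of a library: it stayed only without Ctr replicate 1, EZH2i replicate 3 or IFN-γ + EZH2i replicate 3, and the other 9 libraries each took it to an edgeR adjusted p between 0.0578 and 0.093. The opposite strand of Pax5 carries Gm12462, 4930517J16Rik and 5730488B01Rik, which held 35, 30 and 21 counts over the 12 libraries. The library kit keeps strand, but whether the counting used it is not given in the sources used here.

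The sisters of Pax5 stayed near or under the floor. Pax2 (chr19:44756045-44837871, + strand), a kidney and optic stalk gene, had 0, 0 and 1 counts in Ctr, 2, 0 and 3 in EZH2i, 0 in each IFN-γ library, and 5, 1 and 4 in IFN-γ + EZH2i. With IFN-γ that is 10 counts against 0, at least 3.07-fold higher by the lower end of the exact 95% interval, for counting error only. Without a filter its averaged edgeR adjusted p was 0.222. Pax8 (chr2:24420560-24475599, − strand), a thyroid gene, held 9 counts in all: 3 in Ctr, 5 in EZH2i, 1 in IFN-γ and 0 in IFN-γ + EZH2i, and no difference was detectable at this depth.

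**Figure D2:**
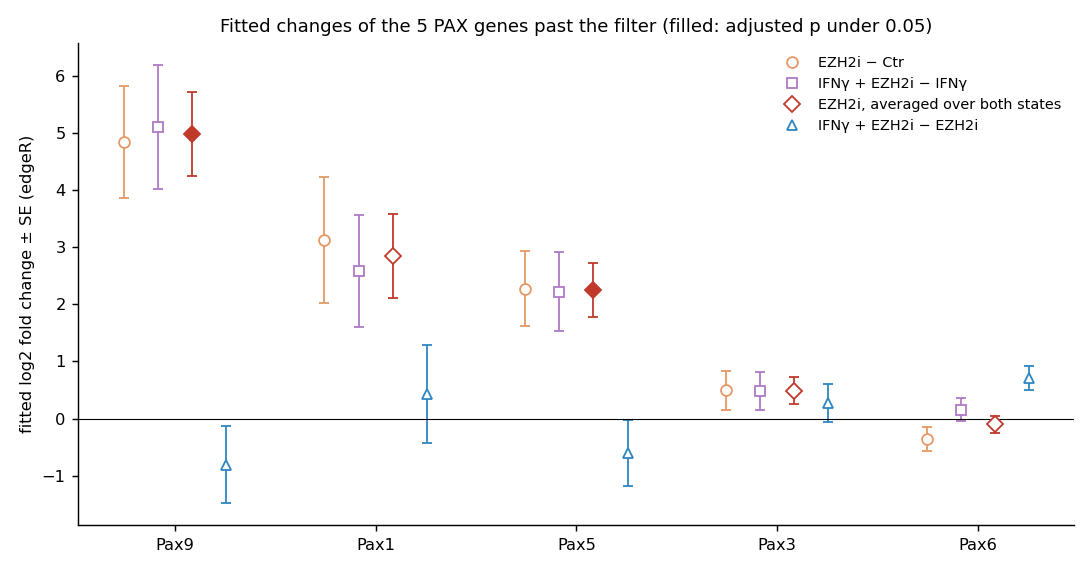
Fitted log2 fold changes ± SE from edgeR for the 5 PAX genes past the filter, in 4 comparisons, with filled symbols for an adjusted p under 0.05. Filled symbols appear for Pax9 at 4.99 and Pax5 at 2.25 in the averaged EZH2i comparison, and the 3 EZH2i estimates of Pax9, Pax1 and Pax5 all lie above 2.

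Pax3 (ENSMUSG00000004872, chr1:78101267-78197134, − strand), a neural crest and myogenic factor, was measured with more counts and did not pass the test. It had 1.70, 1.47 and 1.32 CPM in Ctr and 2.97, 1.43 and 1.96 CPM in EZH2i. With IFN-γ it had 2.21, 1.63 and 1.65 CPM, and with IFN-γ + EZH2i 3.68, 1.76 and 2.21 CPM. The groups overlapped in both IFN-γ states, and replicate 1 was again the highest library of each group. The averaged change of 0.49 ± 0.24 on the log2 scale missed the threshold (edgeR adjusted p = 0.453). Its sister Pax7 (chr4:139737062-139833528, − strand), a marker of muscle stem cells, was not detected in Ctr and gave 0, 3 and 4 counts in EZH2i, 1, 0 and 0 in IFN-γ and 0, 1 and 2 in IFN-γ + EZH2i. The 7 counts in EZH2i against 0 in Ctr are at least 1.16-fold higher by the lower end of the same kind of interval, and without a filter the averaged edgeR adjusted p was 0.521.

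Pax6 (ENSMUSG00000027168, chr2:105668900-105697364, + strand), which patterns the eye, forebrain and pancreas, did not pass the test either. Its levels were 8.87, 13.5 and 9.45 CPM in Ctr and 8.19, 7.54 and 8.96 CPM in EZH2i. They were 10.2, 10.8 and 15.2 CPM with IFN-γ and 13.0, 12.3 and 15.1 CPM with IFN-γ + EZH2i. The inhibitor groups overlapped their controls in both states, with an averaged change of -0.10 ± 0.15 on the log2 scale (edgeR adjusted p = 0.866). Pax4 (chr6:28442334-28449353, − strand), the islet member of this pair, had 18 counts in all, with 3 in Ctr, 10 in EZH2i, 2 in IFN-γ and 3 in IFN-γ + EZH2i. The ratio of 2.68 for EZH2i over Ctr has a counting interval from 0.690 to 15.2.

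The response to 6 h of IFN-γ was tested next. Irf1, Psmb8 and Cxcl10, interferon target genes used as a check, rose with IFN-γ in both inhibitor states. No PAX member was called without inhibitor, 0 of 5 against a background of 8.75% of all genes by edgeR, and none had an unadjusted p under 0.05 where 3612 genes did, and DESeq2 also called 0, where it called 11.5% of all genes. The fitted changes there ran from -1.08 for Pax9 to 0.98 for Pax1 on the log2 scale. In inhibitor-treated cells 0 of 5 were called by edgeR without a block against a background of 8.07%, with 1 member and 3356 genes at an unadjusted p under 0.05.

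That member was Pax6. All 3 of its IFN-γ + EZH2i libraries lay above all 3 EZH2i libraries, as in 11.8% of genes, and its change was 0.71 ± 0.21 on the log2 scale (edgeR adjusted p = 0.0582). In this comparison the replicate numbers were taken as pairs. With the replicate block Pax6 was called higher (edgeR adjusted p = 0.0113), where 11.0% of all genes were called higher. DESeq2 also called it (adjusted p = 0.0125), where it called 7.23% of all genes higher, and so did edgeR without Ctr replicate 2 (adjusted p = 0.0479) or without IFN-γ replicate 3 (adjusted p = 0.038). Without inhibitor the change of Pax6 was 0.20 ± 0.21 (edgeR adjusted p = 0.705). The interaction, which asks whether the 2 changes differ, was 0.52 ± 0.29 with an unadjusted edgeR p of 0.102, so a difference between the states was not shown. For the interaction 0 members were called, and 0.0% of all genes were, by edgeR and by DESeq2, with 127 and 135 genes at an unadjusted p under 0.05.

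Pax6 makes 2 well known protein forms that differ by a short alternative exon, 5a, placed inside the paired domain, where it changes which DNA sites are bound. The exon lies at chr2:105684751-105684792 (GRCm38, + strand) and has 42 bases. The spliced sequence with the exon in capitals and 15 bases of each flanking exon, and the direct join without it, show the letters in which the 2 joins differ:
Pax6 with exon 5a: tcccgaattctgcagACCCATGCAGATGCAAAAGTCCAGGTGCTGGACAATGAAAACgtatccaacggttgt
Pax6 without exon 5a: tcccgaattctgcaggtatccaacggttgt
Of the estimated counts of transcripts that hold either join, 37.5% fell on the form with the exon as a median over the 12 libraries, with a lowest value of 12.2% and a highest of 46.8%. Group means were 35.3% ± 5.4 in Ctr, 29.4% ± 15.5 in EZH2i, 39.3% ± 8.2 in IFN-γ and 39.5% ± 3.7 in IFN-γ + EZH2i (SD, n = 3). The groups overlap, and the lowest library, EZH2i replicate 1, sets the wide spread of its group. Pax6-204, a form without the exon, had 0 counts in every replicate 1 library and in Ctr replicate 2. In the other libraries it held 22.3% to 30.9% of Pax6 counts. The SDs therefore also hold this difference between libraries, whose source was not tested. These shares are Salmon's division of read pairs among 26 annotated transcripts, most of which overlap, so they depend on that model and were not tested.

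Transcripts of the other members were simpler. Pax1-201, a coding transcript of Pax1, held 88.4% of its counts, and Pax5-201 held 82.1%. Pax3 was shared by the coding transcripts Pax3-202, with 59.6%, and Pax3-201, with 34.9%. Pax9 was split between the coding Pax9-201 and Pax9-202, which is annotated as a retained intron. In EZH2i, Pax9-201 had 25.1 counts and Pax9-202 had 44.9, and in IFN-γ + EZH2i they had 29.0 and 5.0. Without inhibitor each had at most 1 count in a group. The retained-intron transcript held more counts than the coding one in 3 of 3 EZH2i libraries and fewer in 3 of 3 IFN-γ + EZH2i libraries. With 5 to 28 counts per library this difference was not tested. The gene Slc25a21 ends within the last stretch of Pax9 on the opposite strand and held 45 counts over the 12 libraries.

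**Figure D3:**
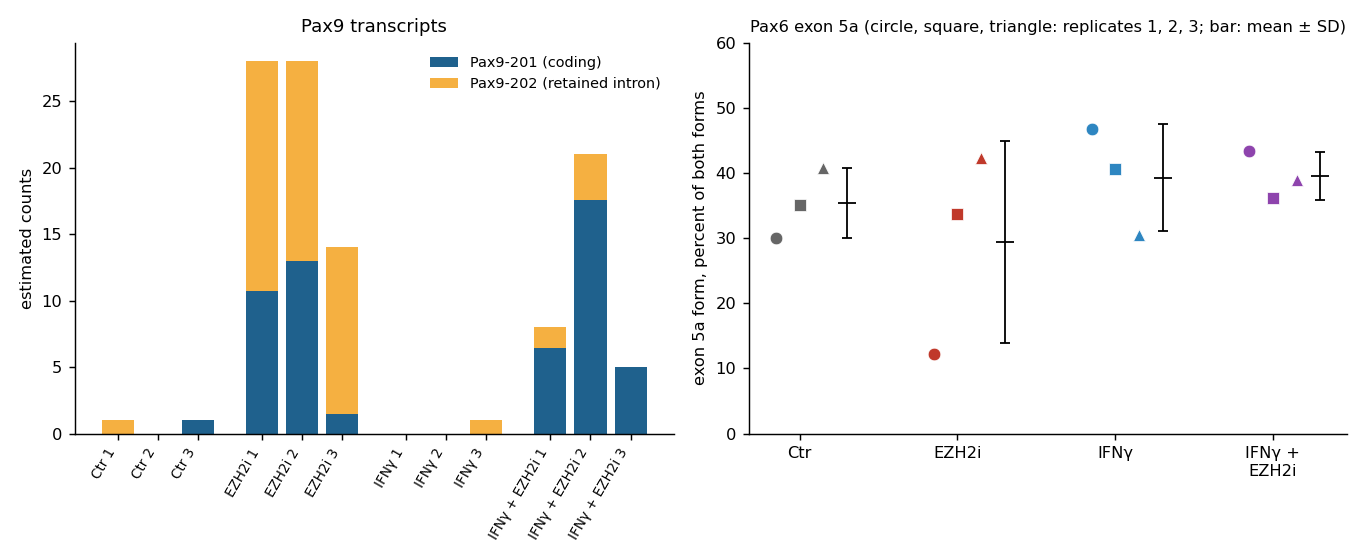
Left, estimated counts of the 2 Pax9 transcripts in each library, stacked (bars start at 0). Right, percent of Pax6 counts on the exon 5a form, of both forms, in each library with mean ± SD of 3 libraries. Retained-intron counts exceed coding counts in the 3 EZH2i libraries of Pax9, and the Pax6 shares of the 4 groups overlap between 12.2% and 46.8%.

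The promoters of Pax1, Pax5 and Pax9 are printed since these 3 genes showed the largest fitted changes with EZH2i, and PRC2 is known to favour DNA rich in CG pairs. Each line gives the 250 bases before an annotated start from RefSeq (GRCm38.p6), in the direction of transcription, with CG pairs in capitals. The Pax1 window is chr2:147364744-147364993 (+ strand), the Pax5 window chr4:44710695-44710944 (− strand) and the Pax9 window chr12:56695221-56695470 (+ strand):
Pax1: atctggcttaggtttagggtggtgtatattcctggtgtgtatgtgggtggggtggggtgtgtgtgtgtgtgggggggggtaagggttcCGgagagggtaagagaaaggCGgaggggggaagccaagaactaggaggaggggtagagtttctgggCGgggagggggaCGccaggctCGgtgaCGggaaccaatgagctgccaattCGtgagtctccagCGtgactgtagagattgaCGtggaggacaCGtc
Pax5: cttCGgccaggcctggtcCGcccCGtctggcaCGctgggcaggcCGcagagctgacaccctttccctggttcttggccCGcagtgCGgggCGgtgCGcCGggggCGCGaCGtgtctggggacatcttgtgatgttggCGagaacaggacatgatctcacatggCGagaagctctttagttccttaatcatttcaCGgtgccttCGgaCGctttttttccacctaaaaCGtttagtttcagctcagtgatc
Pax9: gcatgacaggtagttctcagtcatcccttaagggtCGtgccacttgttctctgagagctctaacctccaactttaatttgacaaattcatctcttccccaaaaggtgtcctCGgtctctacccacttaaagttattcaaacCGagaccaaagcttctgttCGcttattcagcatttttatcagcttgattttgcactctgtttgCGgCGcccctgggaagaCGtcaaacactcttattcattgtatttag
They hold 10, 19 and 7 CG pairs. The median of all 32807 promoter windows is 6, with quartiles of 2 and 16, so Pax1 and Pax9 lie inside the middle of that distribution and Pax5 lies above its upper quartile. Pax6, which did not pass the test, has 15 in the window before its first start. Transcripts from that start held a median of 13.2% of the estimated Pax6 counts over the 12 libraries. Those from a second start, which has no window here, held 73.8%. The letters GGGCGG (GC box, either strand) were found in 6 of 10 PAX windows, Pax1 and Pax5 included, and in 32.7% of all promoters. CCAAT was found in 3 of 10, Pax1 and Pax6 included, and in 33.8% of all, and TATAAA in 0 of 10 and in 12.4% of all, each on either strand. The Pax9 window held none of these 3. The interferon-linked letters TTCNNNGAA were found in 1 of 10 PAX windows, one of Pax2, and in 7.0% of all. CG pairs lie inside GC boxes, so these counts are not separate. A link between CG pairs and the changes with EZH2i was not tested. Windows of 7 members were in the table, without Pax3 and Pax4.

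**Figure D4:**
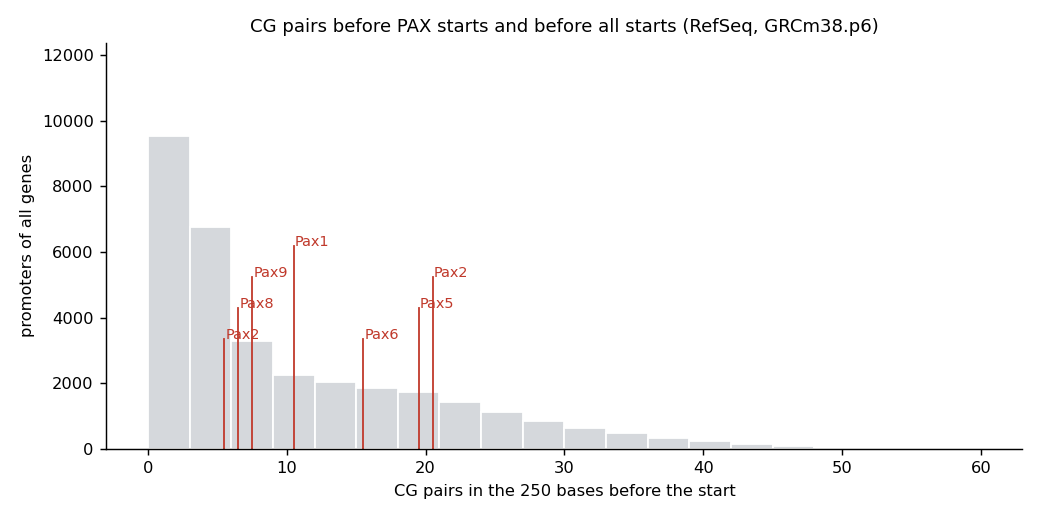
Histogram of the number of CG pairs in the 250 bases before the start of all 32807 RefSeq promoter windows, with red lines at the 7 windows of PAX genes that overlap no annotated exon. Pax9 with 7 and Pax1 with 10 pairs stand near the median of 6. Pax5 with 19 and Pax6, before its first start, with 15 stand further right.

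On each side of the 5 tested members, the nearest protein-coding gene that does not overlap the member was compared in the same averaged fit. There 2.22% of all genes were called in either direction. Slc25a21, which overlaps the end of Pax9, was passed over by this rule. Foxa2, a floor plate and endoderm factor that lies 649582 bases from Pax1 on chromosome 2, rose. It had 0.0118 ± 0.0205 CPM in Ctr and 0.495 ± 0.322 in EZH2i, and 0.0942 ± 0.0637 in IFN-γ and 0.937 ± 0.809 in IFN-γ + EZH2i (SD, n = 3), with a change of 4.27 ± 0.73 on the log2 scale (edgeR adjusted p = 0.0105). Its means without inhibitor lie under the 0.297 CPM of the filter, so the filter can favour a rise here too. On the other side of Pax1, at 167682 bases, the OPC gene Nkx2-2 had a change of -0.94 ± 0.47 and was not called (edgeR adjusted p = 0.475). Melk and Zcchc7 beside Pax5, Epha4 and Sgpp2 beside Pax3, and Rcn1 and Elp4 beside Pax6 were not called. Nor was Prps1l3, 517590 bases from Pax9, and the changes of all of these lay between -0.14 and 0.33. Nkx2-9, the other neighbour of Pax9 at 78483 bases, stayed under the filter at 0.0380 ± 0.0296 CPM in EZH2i.

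For each tested member, the 3 most alike of 14681 genes with a mean of at least 1 CPM were found by Pearson's r of log2 CPM over the 12 libraries. The 3 libraries of a group share a treatment, and the libraries differ in depth, so these values only describe. Pax9 was most like Svop (r = 0.974), Vax2 (0.965) and Ndn (0.962). Vax2, a homeobox gene of the ventral eye, had mean levels of 0.135 CPM in Ctr, 6.92 in EZH2i, 0.0546 in IFN-γ and 6.46 in IFN-γ + EZH2i. Pax1 was most like the sensory neuron factor Pou4f1 (0.969), Ajap1 (0.957) and Tbx2 (0.956), and Pax5 like Rab11fip1 (0.965), Tspan33 (0.960) and Tmem132c (0.949). Pax3 was most like Tubb2a (0.925), with Mras (0.900) also among its 3, and Pax6 like Pdzd11 (0.942), Cnih4 and Stxbp5. Among the members, r was 0.902 for Pax5 and Pax9, 0.897 for Pax1 and Pax5, 0.812 for Pax1 and Pax3 and 0.755 for Pax1 and Pax9, while Pax6 had values from -0.474 to 0.117 with the other 4.

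Genes that PAX factors are known to act with, or that mark the tissues they build, were described from 8 lists of 87 genes. Of these, 58 were tested, and with EZH2i averaged over both states 11 were called higher and 0 lower (19.0%), beside 2.22% of all genes. The lists were chosen with earlier results of these data known. Their shares, here and with IFN-γ below, only describe and test no link to PAX genes. The median change of the 58 was 0.47 on the log2 scale, against -0.001 for all genes. Of the 11 that rose, En2 and Msx1 were above 1 CPM on average in Ctr and the others below it, so the filter can favour a rise in these as in Pax9. The count rests on the libraries used: it was 5 without Ctr replicate 2, 6 without Ctr replicate 3 or IFN-γ replicate 2, 7 without Ctr replicate 1, EZH2i replicate 1, IFN-γ replicate 3 or IFN-γ + EZH2i replicate 2, and up to 14 without another.

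Paxip1 and Paxbp1, whose proteins are named for binding PAX factors, had changes of -0.31 ± 0.16 and -0.08 ± 0.08 and were not called. Of the sclerotome and skeletal genes linked to Pax1 and Pax9, 1 of 7 rose, Nkx3-2, a target of these factors in the sclerotome, from 0.653 ± 0.370 to 3.68 ± 1.72 CPM, and 2.39 ± 0.49 on the averaged log2 scale (edgeR adjusted p = 0.0261).

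Of the kidney, midbrain and thyroid genes linked to Pax2, Pax5 and Pax8, 2 of 11 rose, the midbrain-hindbrain genes En1 with a change of 2.83 ± 0.47 (edgeR adjusted p = 0.00793) and En2 with 1.03 ± 0.16 (edgeR adjusted p = 0.00556). En1 went from 0.540 ± 0.362 to 4.08 ± 2.11 CPM and En2 from 6.50 ± 0.69 to 13.1 ± 2.5 CPM between Ctr and EZH2i. Of the B cell genes only Ebf1 and Cd79a could be tested, and Ebf1 rose by 1.47 ± 0.29 (edgeR adjusted p = 0.0225). Blk and Ms4a1, markers of B cells, were at 0 in all 12 libraries, and Cd79a had a change of -0.41 ± 0.44 (edgeR adjusted p = 0.808).

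Of the muscle and neural crest genes linked to Pax3 and Pax7, 4 of 9 rose: Tfap2b, Tfap2a, Msx2 and Msx1, all neural crest or dorsal neural genes. Tfap2b was at 0 in all 3 Ctr libraries and had 1.08 ± 0.79 CPM in EZH2i, and Tfap2a had 0.0306 ± 0.0285 and 0.709 ± 0.448 CPM. Their averaged changes were 7.53 ± 0.83 (edgeR adjusted p = 0.0018) and 4.98 ± 0.70 (edgeR adjusted p = 0.00315), the first depending on how a level of 0 is handled. Of the eye, cortex and islet genes linked to Pax4 and Pax6, 2 of 7 rose, the proneural factors Neurod1 at 3.50 ± 0.48 (edgeR adjusted p = 0.00274) and Neurog2 at 2.04 ± 0.40 (edgeR adjusted p = 0.0211). Ins1, Ins2, Gcg and Cryaa, products of islet and lens, were at 0 in all libraries. Of the neural tube domain genes 0 of 9 were called, with Olig2, the highest, at -0.39 ± 0.16.

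**Figure D5:**
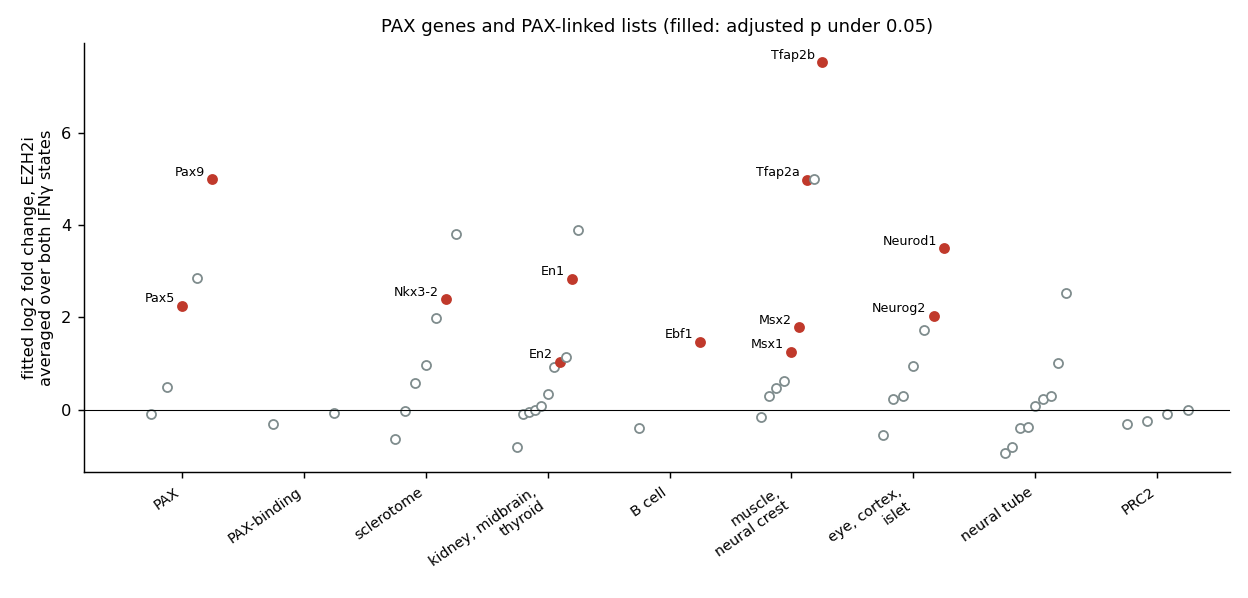
Fitted log2 fold changes with EZH2i averaged over both IFN-γ states for the tested PAX genes, 7 of the 8 PAX-linked lists and the 4 PRC2 genes, 1 point per gene, filled where the edgeR adjusted p is under 0.05. The filled points of the linked lists, such as Tfap2b at 7.53 and En2 at 1.03, all lie above 0, and 0 of the PRC2 genes are filled.

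With IFN-γ, 9 of the 58 linked genes were called without inhibitor (15.5%, beside 8.75% of all genes) and 8 with inhibitor (13.8%, beside 8.07%). In the first comparison 6 were higher and 3 lower. Wt1, a kidney progenitor gene, went from 0 in all Ctr libraries to 1.04 ± 0.74 CPM, and Meox1, a somite gene, from 0.296 ± 0.112 CPM to 0. The thyroid iodide transporter Slc5a5 went from 0.640 ± 0.329 to 17.7 ± 16.4 CPM, and Gdnf, a kidney and nerve growth factor, from 0.588 ± 0.077 to 5.22 ± 4.53 CPM (SD, n = 3; all 4 called by edgeR). Pax2 and Pax8, the PAX genes of those organs, had 0 and 1 counts in the 3 IFN-γ libraries. Both stayed near or under the floor in every group, and a link between them and these changes was not tested.

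The target of the inhibitor was checked at the RNA level. Ezh2 had 49.4 ± 5.2 CPM in Ctr, 39.6 ± 7.7 in EZH2i, 46.6 ± 4.8 in IFN-γ and 38.1 ± 5.3 in IFN-γ + EZH2i, with an averaged change of -0.30 ± 0.12 (edgeR adjusted p = 0.284). Of the 4 PRC2 genes 0 were called. EPZ011989 blocks the enzyme rather than its transcript, so RNA does not check the treatment.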

How the data were processed

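RNA was sequenced from 12 OPC cultures (TruSeq Stranded Total RNA Gold, NovaSeq). The authors deposited Salmon 0.8.2 output with estimated counts and TPM per transcript. Their notes also name STAR, DESeq2 and the builds mm10 and GRCm38. Their tables of fold changes and p-values were not used. All 141862 transcripts matched GENCODE M21 and were summed over 55536 genes, and estimated counts were rounded. The 3 libraries per group came from different litters.

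edgeR 4.0.16 (R 4.3.3) fitted all 12 libraries by group with TMM scaling, filterByExpr and quasi-likelihood tests, with Benjamini-Hochberg adjustment over 18995 genes and a threshold of 0.05. CPM are TMM-scaled, and SE is the fold change over the root of F. The fits were tested on simulated data. Intervals and the floor of 3 counts cover counting error only. Same-numbered libraries deviated together (r of 0.493 to 0.642 for IFN-γ + EZH2i against IFN-γ and 0.496 to 0.621 against EZH2i), so these 2 comparisons were also given with a replicate block. Against Ctr, replicate 2 fell to 0.047 and 0.085, and the numbers were not taken as pairs. The labels do not say whether a number marks a shared litter, so pairing was judged from these same data. The block was still fitted in a single model over all 12 libraries, Ctr included. All blocked values therefore also treat the Ctr numbers as pairs. DESeq2 1.42.0, RLE scaling, no filter, a replicate block, only the 6 libraries compared and leaving out each library were the alternatives.

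Named genes are the PAX members, up to 4 called genes per list by fitted change (or its highest gene), the flanking coding genes and the 3 most alike genes. Members and lists were chosen with earlier results of these data known. Some genes that this rule names are not reported here.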

Additional observations from a re-analysis of the deposited data

How the results depend on the processing

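Of the single-gene values under other tools and settings, 124 kept their direction and side of the threshold and 15 newly passed it. With 1 library left out, 321 did so, 26 changed sign, 4 newly passed and 9 no longer did, the last all being Pax5 averaged over both states. PAX calls for EZH2i against Ctr went from 0 to 1 with DESeq2, 1 without a filter (Pax9 in both) and 3 with the replicate block (Pax1, Pax5, Pax9), and ranged from 0 to 1 when 1 library was left out. Those settings called 1.74%, 0.378% and 4.06% of all genes, against 0.405%. For IFN-γ + EZH2i against IFN-γ they went from 0 to 1, 1 and 3 in the same order (1.48%, 0.281% and 3.94% of all genes). Against EZH2i they went from 0 to 1 (Pax6) with DESeq2 and 1 with the block (11.1% and 19.3% of all genes), and from 0 to 1 with 1 library left out. The averaged count of 2 was 3 with DESeq2, without a filter and with the block, each adding Pax1 (4.61%, 1.36% and 12.2% of all genes), and 1 to 2 with 1 library left out. With the block the averaged Pax1 change was 2.87 ± 0.38 (edgeR adjusted p = 0.000522). In the comparisons with Ctr the libraries were taken to share only a number, although 5 of 6 (EZH2i) and 6 of 6 (IFN-γ) correlated best with their own number. The cause of these shifts was not tested.

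Leaving out 1 library turned the sign of some uncalled changes. With IFN-γ these ran from -0.411 to 1.752 for Pax1, -0.841 to 0.056 for Pax5 and -0.009 to 0.384 for Pax6. With IFN-γ on EZH2i they ran from -0.886 to 0.992 for Pax1 and -0.1 to 0.577 for Pax3. Interactions ran from -1.854 to 0.844 for Pax1, -0.375 to 0.289 for Pax3, -0.756 to 0.3 for Pax5 and -0.446 to 1.897 for Pax9.

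Alternatives for the linked genes were chosen after seeing the data. The shares of all genes called with DESeq2, without a filter and with the block are those above. For EZH2i against Ctr the count of 1 became 13 with DESeq2, 4 without a filter, 19 with the replicate block, 0 with only 6 libraries, and 0 to 1 with 1 library left out. Within IFN-γ the count of 3 became 7 with DESeq2, 17 with the block, 0 with only 6 libraries and 0 to 4 with 1 left out. The averaged 11 became 21, 19 without a filter, 30 with the block and 5 to 14. The IFN-γ count of 9 became 20 with the block, which called 21.2% of all genes, and 6 to 10. On EZH2i, 8 became 13 with DESeq2, 22 with the block and 4 to 12.

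Depth limits Pax2, Pax4, Pax7 and Pax8, which held 9 to 18 counts over all libraries.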
